A study of Rattus norvegicus with 33 samples.

Results

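The early plasma response to acetaminophen was described from 3 small RNA libraries of rat plasma, taken 3 h and 6 h after the dose and after vehicle. Its members are the miRNAs that reached 20 reads in any of these 3 libraries, which were 102 of the 350 mature miRNAs listed in the acetaminophen table. The rule uses a read minimum and no difference between libraries. The study as a whole covered 6 liver toxicants in male Sprague-Dawley rats with 33 labelled samples in 29 table columns, each called a library here, among them the ANIT vehicle column, which stands for 2 labelled samples. The rats of the first group received acetaminophen (APAP) at 1500 mg/kg by the intragastric route after a 12 h fast and were sampled at 3 h. Those of the second group had the same dose and fast and were sampled at 6 h. The vehicle rats received carboxymethylcellulose (CMC), 10 mL/kg, the carrier of the drug, and are labelled 0 h. Whether the vehicle rats fasted is not stated. All groups were 5 male rats bought at 6 weeks of age and kept for 1 week before use. EDTA plasma (200 µL) came from the descending aorta under isoflurane. The labels do not say if the plasma of the 5 rats was pooled or came from 1 of them, and each group has 1 library, so no value below has an SD or a p-value and no difference between libraries can be given as a test of the drug.

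Acetaminophen is a painkiller that, in overdose, is turned by hepatocytes into a reactive product that depletes glutathione, binds mitochondrial proteins and kills cells around the central vein. Dying or stressed cells release miRNAs that stay stable in plasma inside vesicles or bound to proteins, so a miRNA made mainly by 1 cell type can be read as a leak from it. miR-122-5p, made almost only by hepatocytes, is the plasma miRNA best known for this use. miR-192-5p marks liver, intestinal and kidney epithelium, miR-1, miR-133a and miR-206 mark heart or skeletal muscle, and miR-451 and miR-16 are abundant in red cells. In plasma, more cells that release a miRNA and more miRNA released per cell cannot be told apart.

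The miRNAs that carry the results are printed below from RefSeq (rat build GRCr8), 5′ to 3′, with the seed (bases 2 to 8, which pair with targets) in capitals. RefSeq mature sequences were matched by name to 88 of the 102 miRNAs. The first 2 are the liver-enriched miR-122-5p (chr18:61028831-61028852, plus strand) and miR-192-5p (chr1:212994232-212994252, plus strand), followed by miR-215 (chr13:99383003-99383024, plus strand), which has the seed of miR-192-5p.
miR-122-5p: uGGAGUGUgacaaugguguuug
miR-192-5p: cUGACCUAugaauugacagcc
miR-215: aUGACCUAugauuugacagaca

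The muscle miRNAs are shown because miR-1-3p, miR-1b and miR-206-3p have 1 seed and close bodies, while miR-133a-3p (chr18:2157886-2157907, minus strand) has another seed and lies near miR-1-3p (chr18:2160339-2160360, minus strand).
miR-1-3p: uGGAAUGUaaagaaguguguau
miR-1b: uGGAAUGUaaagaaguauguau
miR-206-3p: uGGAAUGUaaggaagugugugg
miR-133a-3p: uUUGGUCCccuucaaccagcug

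Counted from 1 at the 5′ end, miR-1b differs from miR-1-3p by G17A and miR-206-3p by A11G, A21G and U22G. miR-215 differs from miR-192-5p by C1A, A12U and C20A over the 21 bases they share in register.

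Members of the let-7 family and the miR-101 pair are shown because near-identical sequences moved apart in these libraries. Relative to let-7a-5p, let-7c-5p has A19G, let-7b-5p has A17G and A19G, and let-7f-5p has G12A. miR-101b-3p differs from miR-101a-3p by A16G alone. For such close sequences the authors' counting could have split or shifted reads between members, and their single values are uncertain to that extent.
let-7a-5p: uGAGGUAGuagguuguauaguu
let-7c-5p: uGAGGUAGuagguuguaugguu
let-7b-5p: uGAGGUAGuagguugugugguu
let-7f-5p: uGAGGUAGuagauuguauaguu
miR-101a-3p: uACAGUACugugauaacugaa
miR-101b-3p: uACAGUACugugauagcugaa

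The remaining sequences belong to miRNAs with fewer reads after the drug, miR-16-5p, miR-451-5p and miR-93-5p, and to miR-183-5p and miR-375-3p, which had more at 6 h.
miR-16-5p: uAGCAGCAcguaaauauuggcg
miR-451-5p: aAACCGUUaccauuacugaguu
miR-93-5p: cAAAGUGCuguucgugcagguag
miR-183-5p: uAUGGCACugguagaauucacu
miR-375-3p: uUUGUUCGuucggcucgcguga

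The libraries held 52047 miRNA reads at 3 h, 112230 at 6 h and 47122 in vehicle. Without miR-122-5p the totals were 41883, 56178 and 45848 reads, so the greater part of the extra depth at 6 h was this 1 miRNA. The 102 miRNAs held 98.9% of reads at 3 h, 99.6% at 6 h and 98.9% in vehicle. Of the 102, 88 reached 20 reads in vehicle and 14 reached it only at 3 h or 6 h. Just inside the minimum were miR-676 with a highest count of 20 reads and miR-221-3p with 21, and just outside was miR-17-5p with 19. A count of 0 allows up to 3 reads, a share of 0.00576% at 3 h, 0.00267% at 6 h and 0.00637% in vehicle. All intervals given are exact 95% intervals of the read counts and cover counting error only.

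Because 1 miRNA can take up so many of the reads, each ratio was computed with 2 scalings. TMM (trimmed mean of M-values) assumes that most miRNAs kept their relative level, and under it 1 read at 3 h or 6 h was worth nearly the same as 1 read in vehicle (relative library sizes 0.970 at 3 h, 0.999 at 6 h and 1 in vehicle). Total-count scaling compares shares of all miRNA reads. Ratios are by TMM unless total counts are named. miRNAs were called by a rule of size, with no p-value: higher means a ratio of 2 or more and lower a ratio of 0.5 or less, in each case with a counting interval clear of 1. The median log2 ratio of the 102 miRNAs was 0.27 by TMM and 0.08 by total counts at 3 h, and 0.10 by TMM and −1.16 by total counts at 6 h, a shift of −0.19 at 3 h and −1.25 at 6 h between the scalings.

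Among miRNAs with at least 20 reads in vehicle, the highest ratios at 3 h were those of the muscle miRNAs miR-1-3p and miR-206-3p and of miR-122-5p. By TMM, 21 of 102 miRNAs (20.6%) were called higher at 3 h and 8 (7.84%) lower. By total counts 15 (14.7%) were higher and 12 (11.8%) lower, and all 15 of these higher calls and the 8 lower TMM calls were made under both scalings. By 6 h miR-122-5p and miR-192-5p were called higher under both scalings, and no muscle miRNA was called higher. At 6 h, 18 miRNAs (17.6%) were called higher and 11 (10.8%) lower by TMM, against 6 (5.88%) higher and 60 (58.8%) lower by total counts (64.7% in all), and 54 of the 102 ratios were above 1 by TMM but 16 by total counts. Among miRNAs that reached the minimum only through a drug library, 8 of 14 were called higher at 3 h and 5 of 14 at 6 h, and these counts show only how the members were chosen.

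**Figure D1:**
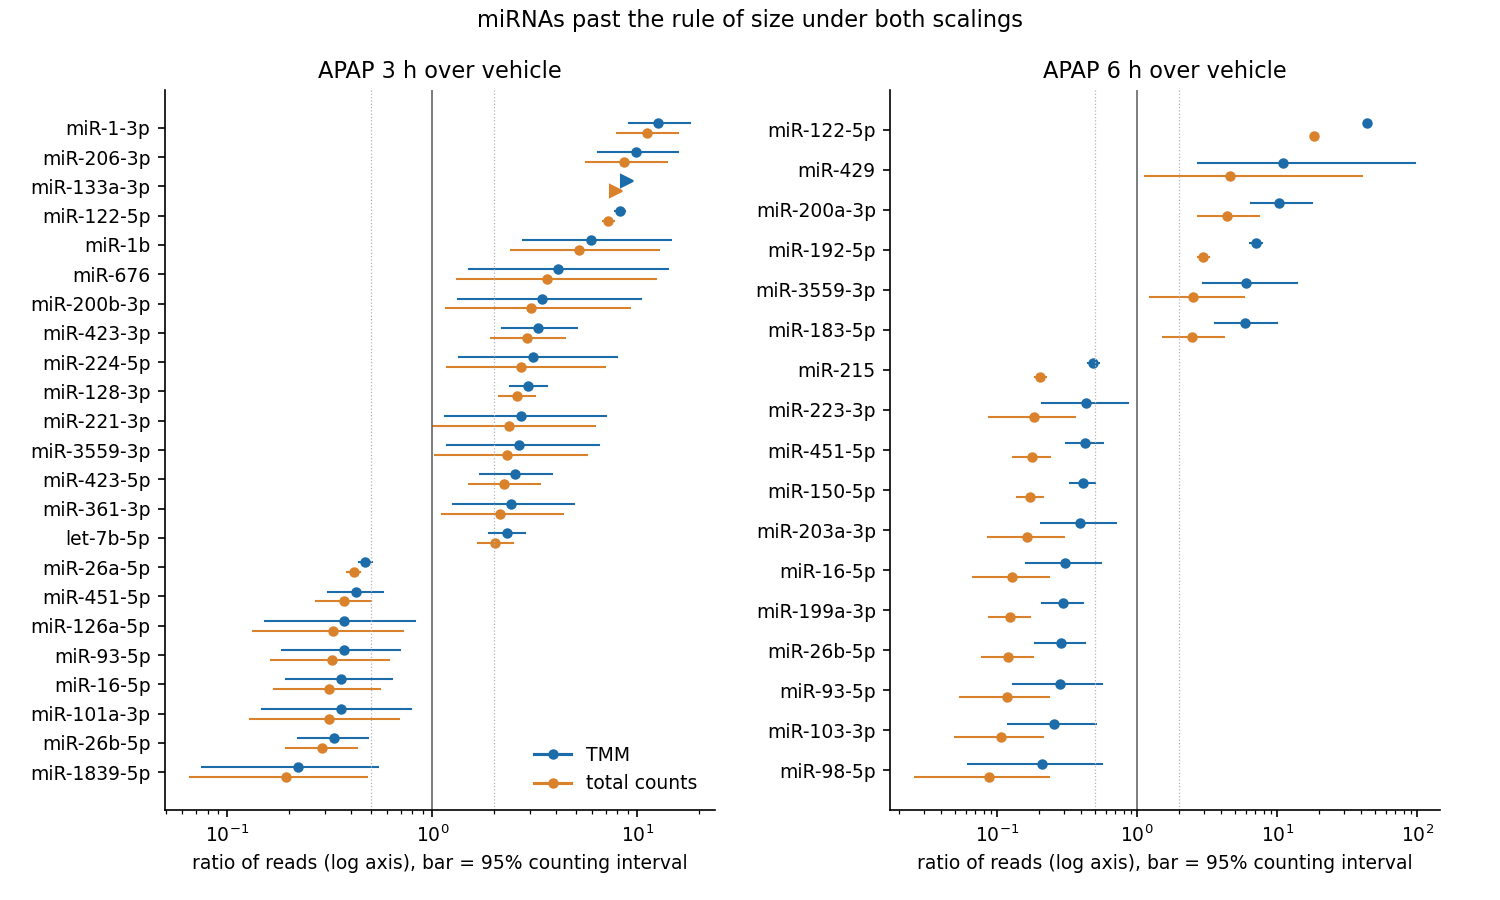
Ratios of reads over vehicle (log axis) at 3 h (left) and 6 h (right) for each miRNA called under both scalings, by TMM (blue) and by total counts (orange); points are ratios, bars 95% counting intervals, arrowheads lower bounds, and dotted lines 0.5 and 2. At 3 h miR-1-3p has the highest ratio among miRNAs with reads in vehicle, 12.6 by TMM, while miR-133a-3p has a lower bound only, and at 6 h miR-122-5p at 44.0, where total counts put every ratio lower than TMM does.

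miR-122-5p had 10164 reads at 3 h and 56052 at 6 h, against 1274 in vehicle. These were 19.5% of all miRNA reads at 3 h (19.2% to 19.9%), 49.9% at 6 h (49.7% to 50.2%) and 2.70% in vehicle (2.56% to 2.85%). It was the second most frequent miRNA at 3 h, the most frequent at 6 h and the ninth in vehicle. The ratio to vehicle was 8.23 (7.76 to 8.73) at 3 h and 44.0 (41.7 to 46.6) at 6 h by TMM, and 7.22 and 18.5 by total counts. It was called higher against each of the 5 vehicle libraries of the series at both times under both scalings.

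miR-192-5p had 1007 reads at 3 h and 3446 at 6 h, against 486 in vehicle, ratios of 2.14 (1.92 to 2.39) and 7.10 (6.45 to 7.82). By total counts the ratio was 1.88 at 3 h, short of the rule, and 2.98 at 6 h. miR-194-5p, processed from the same transcript as miR-192, had 9 reads at 3 h and 35 at 6 h, against 15 in vehicle. Its 6 h ratio was 2.34 (1.24 to 4.60) by TMM and 0.980 by total counts, so its direction turns with the scaling. Of the 10 liver-enriched miRNAs listed in the table only these 3 were measured, and 2 were called higher at 3 h and 3 at 6 h by TMM (1 and 2 by total counts). miR-194-5p reached 20 reads only at 6 h, so its call there follows from how the members were chosen. Their summed share, with that of the unmeasured members, was 21.5% at 3 h, 53.1% at 6 h and 3.77% in vehicle.

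miR-148a-3p, made in liver and many other tissues and the most frequent miRNA in vehicle plasma, did not follow miR-122-5p. It had 13240 reads at 3 h and 24017 at 6 h, against 13993 in vehicle, ratios of 0.976 (0.953 to 0.999) and 1.72 (1.68 to 1.75) by TMM and 0.857 and 0.721 by total counts. No ratio of it passed the rule of size. For each read of miR-122-5p there were 1.30 reads of miR-148a-3p at 3 h, 0.428 at 6 h and 11.0 in vehicle. Set against miR-140-3p, a cartilage-enriched miRNA second in vehicle plasma, miR-148a-3p was at 3.25 at 3 h, 5.03 at 6 h and 3.19 in vehicle.

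Ratios between 2 miRNAs of a library do not depend on the scaling, and they separated miR-192-5p from its seed partner miR-215, which is enriched in gut and kidney. miR-215 had 1030 reads at 3 h and 742 at 6 h, against 1529 in vehicle. Its ratio to vehicle was 0.695 (0.641 to 0.752) at 3 h, and at 6 h it was called lower under both scalings, at 0.486 (0.444 to 0.531) by TMM. The ratio of miR-192-5p to miR-215 was 0.978 (0.895 to 1.07) at 3 h, 4.64 (4.29 to 5.03) at 6 h and 0.318 (0.286 to 0.352) in vehicle. In the other 4 vehicle libraries it lay between 0.178 and 0.379, below both drug libraries. The ratio of miR-122-5p to the red cell miRNA miR-486 was 5.78 at 3 h, 31.0 at 6 h and 0.439 in vehicle, and 0.141 to 1.26 in the other vehicle libraries.

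**Figure D2:**
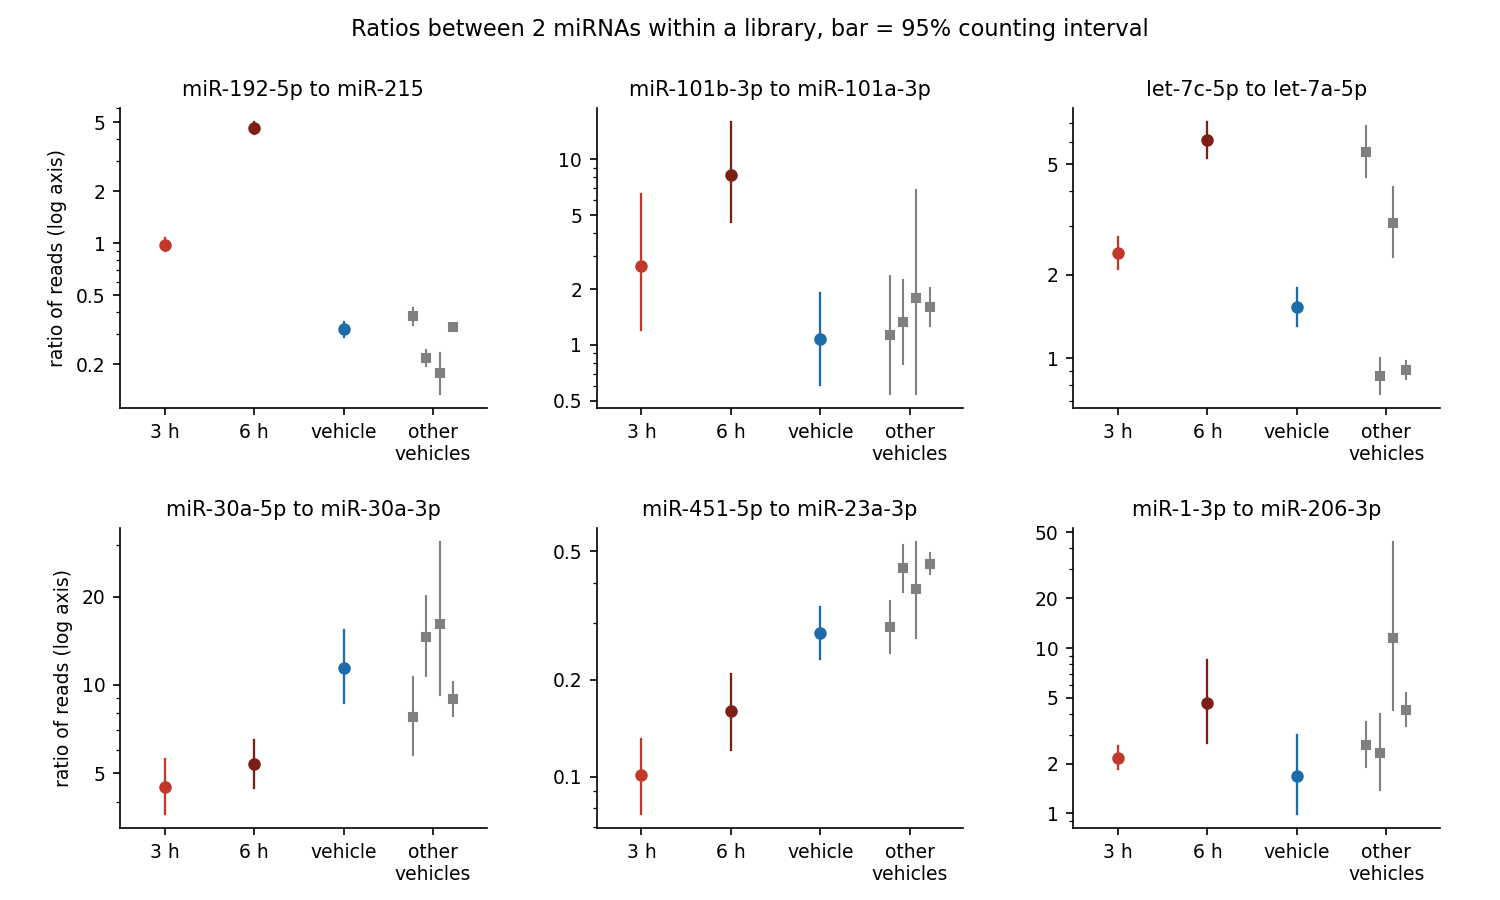
Reads of 1 miRNA over those of another within the same library (log axis, 95% counting intervals as bars) at 3 h, 6 h and in the acetaminophen vehicle (circles), and in the 4 vehicle libraries of the other toxicants (grey squares). miR-192-5p to miR-215 is 0.978 at 3 h and 4.64 at 6 h, above the vehicle libraries, while let-7c-5p to let-7a-5p lies within the spread of the other vehicles at 3 h.

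The muscle miRNAs were high at 3 h and near the vehicle level at 6 h. miR-1-3p, which is abundant in heart and skeletal muscle, had 478 reads at 3 h and 74 at 6 h, against 39 in vehicle. Its ratio was 12.6 (9.11 to 18.0) at 3 h, above the 8.23 of miR-122-5p, and 1.90 (1.27 to 2.88) at 6 h. By total counts the ratios were 11.1 and 0.797.

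miR-206-3p, found mainly in skeletal muscle, had 220 reads at 3 h and 16 at 6 h, against 23 in vehicle. Its ratio was 9.86 (6.41 to 15.9) at 3 h and 0.696 (0.344 to 1.38) at 6 h. By total counts the 3 h ratio was 8.66 and the 6 h ratio 0.292. miR-133a-3p, of heart and skeletal muscle, had 26 reads at 3 h and 1 at 6 h, against 0 in vehicle, at least 8.94-fold higher at 3 h than a vehicle floor of 3 reads by TMM and at least 7.85-fold by total counts. miR-1b, the seed partner of miR-1-3p, had 46 reads at 3 h and 15 at 6 h, against 8 in vehicle, with a 3 h ratio of 5.93 (2.77 to 14.5).

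Of the 7 muscle miRNAs listed 4 were measured. miR-1-3p and miR-206-3p had at least 20 reads in vehicle, and both were called higher at 3 h under both scalings. miR-133a-3p and miR-1b, also called higher at 3 h, reached 20 reads at 3 h alone, where they are high, so their calls follow from how the members were chosen. At 6 h none of the 4 was called by TMM, and 1, miR-206-3p, was called lower by total counts. Between the drug libraries, miR-1-3p at 6 h was 6.66-fold lower than at 3 h (5.20 to 8.62) and miR-206-3p 14.2-fold lower (8.53 to 25.2). Both were called lower under both scalings. miR-133a-3p and miR-1b were called lower as well, but these calls too follow from how the members were chosen. Muscle miRNAs summed to 1.49% of reads at 3 h, 0.0962% at 6 h and 0.149% in vehicle.

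The other vehicle libraries varied in the same miRNAs, with summed muscle shares of 0.187% to 0.711%. Scaled by 1 TMM over all libraries, miR-1-3p was at 415.6 reads at 3 h and 67.7 at 6 h, against 39 to 232.2 in the 5 vehicle libraries. On that scale miR-206-3p was at 191.3 at 3 h and 14.6 at 6 h, against 12.0 to 89.0 in the vehicle libraries. miR-1b at 3 h, with 39.99 scaled reads, lay within the vehicle range of 8 to 50.9. miR-206-3p and miR-133a-3p at 3 h were called higher against each of the 5 vehicle libraries under both scalings, and miR-1-3p and miR-1b were not.

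**Figure D3:**
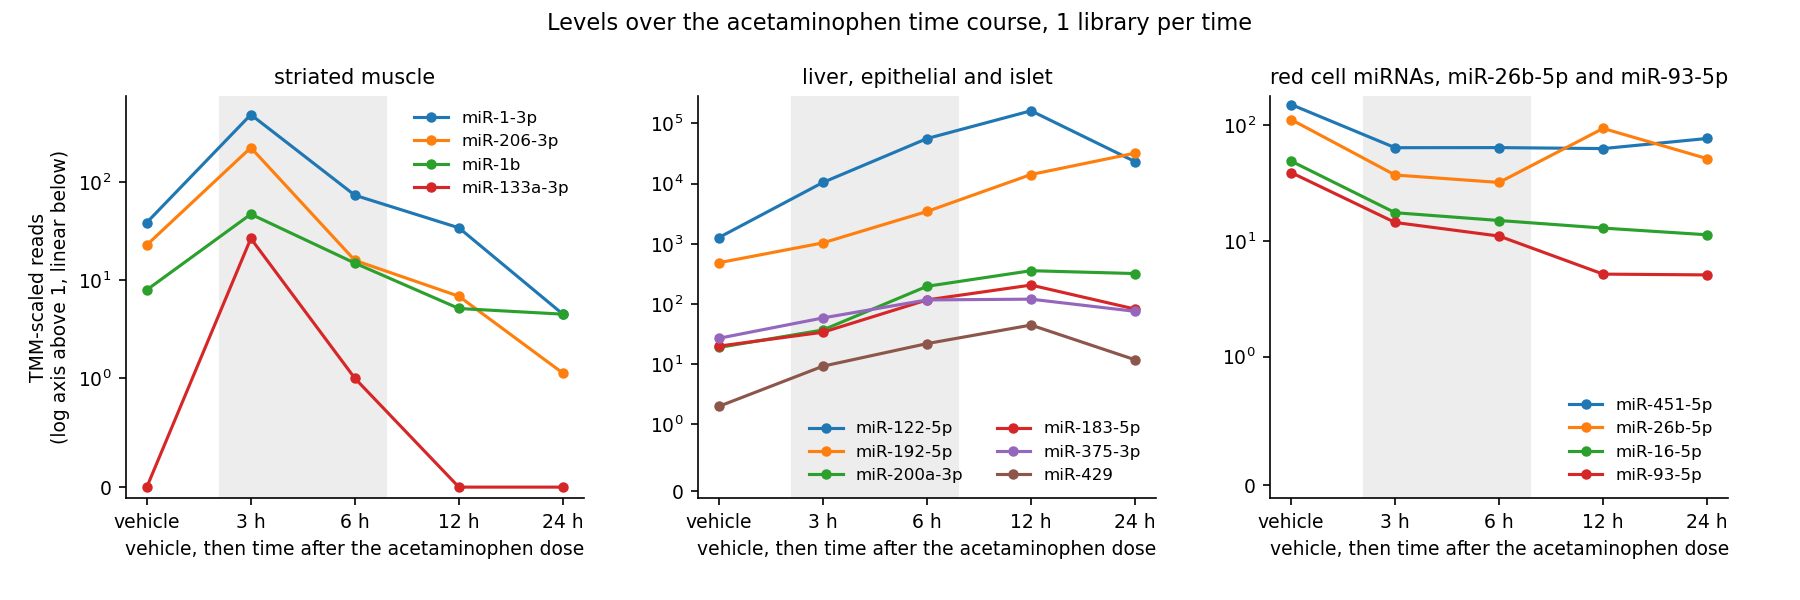
TMM-scaled reads (log axis above 1, linear below) in vehicle and at 3, 6, 12 and 24 h after acetaminophen, 1 library per point, with 3 h and 6 h shaded. Muscle miRNAs (left) are highest at 3 h, where miR-1-3p is at 492.9 scaled reads. The miRNAs drawn in the middle panel, miR-122-5p among them, are higher at 6 h than at 3 h. miR-451-5p and miR-16-5p (right) are at similar levels at 3 h and 6 h.

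The epithelial miRNAs were called in both directions at 6 h. miR-200a-3p, of the family that maintains the epithelial state, had 36 reads at 3 h and 197 at 6 h, against 19 in vehicle. Its ratio was 1.95 (1.09 to 3.61) at 3 h and 10.4 (6.47 to 17.6) at 6 h, and 4.35 at 6 h by total counts. miR-429 and miR-200b-3p, of the same cluster, had few reads. miR-429 had 9 at 3 h and 22 at 6 h, against 2 in vehicle, and was called higher at 6 h under both scalings at 11.0 (2.71 to 96.6). miR-200b-3p had 20 at 3 h and 32 at 6 h, against 6 in vehicle, with ratios of 3.44 and 5.34 by TMM and 3.02 and 2.24 by total counts, the last short of the rule. Of the 10 epithelial miRNAs listed 4 were measured, with 1 called higher at 3 h and 3 higher and 1 lower at 6 h. The 3 higher ones reached 20 reads only in a drug library, where they are high, so their count is no support for the group. The lower one, the only member with 20 reads in vehicle, was miR-203a-3p, a miRNA of skin keratinocytes, with 35 reads at 3 h and 16 at 6 h, against 41 in vehicle.

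miR-183-5p and miR-182 come from 1 cluster that is expressed in sensory and epithelial cells. miR-183-5p had 33 reads at 3 h and 117 at 6 h, against 20 in vehicle, a 6 h ratio of 5.85 (3.62 to 9.94). miR-182 had 52 at 3 h and 145 at 6 h, against 43 in vehicle, a 6 h ratio of 3.37 (2.39 to 4.86). Neither was called at 3 h, and at 6 h miR-183-5p was called under both scalings and miR-182 by TMM alone. miR-375-3p, of pancreatic islets and gut endocrine cells, had 57 reads at 3 h and 117 at 6 h, against 27 in vehicle, with ratios of 2.18 (1.35 to 3.58) and 4.34 (2.83 to 6.86) by TMM and 1.91 and 1.82 by total counts. At 6 h miR-200a-3p, miR-183-5p, miR-192-5p and miR-122-5p were called higher against each of the 5 vehicle libraries under both scalings. miR-182, miR-200b-3p, miR-3559-3p and miR-375-3p were so with 1 TMM over all libraries only.

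2 miRNAs of red cells were lower than in vehicle at both times. miR-451-5p, made during red cell maturation, had 62 reads at 3 h and 64 at 6 h, against 151 in vehicle, ratios of 0.423 (0.310 to 0.573) and 0.424 (0.312 to 0.572). miR-16-5p had 17 at 3 h and 15 at 6 h, against 49 in vehicle, ratios of 0.358 (0.193 to 0.632) and 0.306 (0.160 to 0.555). Both were called lower against each of the 5 vehicle libraries, at both times and under both scalings. miR-486 had 1758 reads at 3 h and 1809 at 6 h, against 2899 in vehicle, and its ratio of 0.625 at both times missed the rule by TMM. It was called lower by total counts at 6 h alone, at 0.262.

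Of the 7 red cell miRNAs listed 4 were measured, and 2 were called lower at each time by TMM. The shares of all 102 called lower were 7.84% at 3 h and 10.8% at 6 h. The medians of the list were −0.96 at 3 h and −0.95 at 6 h on the log2 scale. By total counts 2 were called lower at 3 h and 4 at 6 h, against 11.8% and 58.8% of all 102. The list is too short to set against these shares. The ratio of miR-451-5p to miR-23a-3p, which is used in human plasma as a sign of burst red cells, was 0.101 (0.0764 to 0.131) at 3 h, 0.160 (0.121 to 0.208) at 6 h and 0.280 (0.232 to 0.335) in vehicle. It was lower in both drug libraries than in any vehicle library of the series, where it reached 0.458. The red cell list summed to 4.28% of reads at 3 h, 1.98% at 6 h and 7.66% in vehicle.

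miR-93-5p, of the miR-106b/25 cluster, had 14 reads at 3 h and 11 at 6 h, against 39 in vehicle, and was called lower at both times under both scalings and against each of the 5 vehicle libraries. miR-26a-5p had 1013 reads at 3 h and 1215 at 6 h, against 2218 in vehicle, and miR-26b-5p had 36 and 32, against 112. miR-26a-5p was called lower at 3 h (0.471, interval 0.437 to 0.508) and miR-26b-5p at both times (0.331 and 0.286). The 2 miR-26 members had the same direction, but miR-26a-5p ran from 476.4 to 3029 scaled reads in the 5 vehicle libraries, and its 880.7 at 3 h lay inside that range.

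White cell miRNAs were not called at 3 h, in a list too short to set against the shares of all 102. None of the 8 measured of 13 listed was called at 3 h, against 20.6% higher and 7.84% lower of all 102. Their median log2 ratio at 3 h was 0.50, against 0.27 of all 102. At 6 h 2 were called lower by TMM, with a median of −0.00, against 10.8% lower of all 102. These 2 were miR-150-5p, of mature lymphocytes, with 220 reads at 3 h and 133 at 6 h, against 325 in vehicle, and miR-223-3p, of neutrophils and monocytes, with 40 at 3 h and 13 at 6 h, against 30 in vehicle. Their 6 h ratios were 0.410 (0.332 to 0.503) and 0.434 (0.208 to 0.857). By total counts 7 of the 8 were called lower at 6 h, against 58.8% of all 102. miR-223-3p at 6 h was also called lower against each of the 5 vehicle libraries.

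Among endothelial and platelet miRNAs with 20 reads in vehicle, only miR-126a-5p was called at 3 h, as lower. Mesenchymal miRNAs were called only lower, at 6 h. These lists are too short to set against the 20.6% higher and 7.84% lower of all 102 at 3 h. Of the 6 listed platelet and endothelial miRNAs 4 were measured, with 1 called higher and 1 lower at 3 h and none at 6 h by TMM (3 lower at 6 h by total counts). miR-126a-3p, the main endothelial miRNA, had 286 reads at 3 h and 247 at 6 h, against 360 in vehicle, ratios of 0.819 and 0.687. Its other strand miR-126a-5p was called lower at 3 h, with 9 reads at 3 h and 13 at 6 h, against 25 in vehicle. miR-221-3p was called higher, with 21 at 3 h and 10 at 6 h, against 8 in vehicle. It reached 20 reads at 3 h alone, so its call follows from how the members were chosen. Of the 7 listed mesenchymal miRNAs 3 were measured, and miR-199a-3p, of fibroblasts and stellate cells, was the only call by TMM, at 6 h. It had 130 reads at 3 h and 48 at 6 h, against 163 in vehicle, a 6 h ratio of 0.295 (0.209 to 0.409). By total counts all 3 mesenchymal miRNAs were called lower at 6 h, where 58.8% of all 102 were.

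The let-7 family, which promotes differentiation, did not have 1 direction among members that share a seed. let-7c-5p had 771 reads at 3 h and 1270 at 6 h, against 413 in vehicle, and let-7b-5p had 331 and 301, against 148. let-7f-5p had 888 reads at 3 h and 1017 at 6 h, against 1729 in vehicle, and let-7g-5p had 1055 and 1322, against 2165. let-7c-5p and let-7b-5p thus had more reads in both drug libraries and let-7f-5p and let-7g-5p fewer.

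By TMM let-7b-5p was called higher at 3 h (2.31) and at 6 h (2.04), and let-7c-5p at 6 h (3.08). By total counts let-7b-5p was at 2.02 at 3 h and 0.854 at 6 h, below 1, and let-7c-5p at 1.29 at 6 h. let-7f-5p was at 0.530 and 0.589 and let-7g-5p at 0.502 and 0.611, none of them past the rule by TMM. miR-98-5p, which has the let-7 seed, was called lower at 6 h, with 15 reads at 3 h and 5 at 6 h, against 24 in vehicle. Of 8 measured members of 9 listed, 1 was called higher at 3 h, and 2 higher and 1 lower at 6 h, near the shares of all 102 (20.6% higher at 3 h, 17.6% higher and 10.8% lower at 6 h). By total counts 1 was higher and 2 lower at 3 h, and 6 lower at 6 h.

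The ratio of let-7c-5p to let-7f-5p was 0.868 (0.787 to 0.957) at 3 h, 1.25 (1.15 to 1.36) at 6 h and 0.239 (0.214 to 0.266) in vehicle. The other 4 vehicle libraries spanned 0.115 to 2.29, so the drug libraries lay within the spread of vehicle plasma. let-7c-5p to let-7a-5p was 2.39 at 3 h, 6.11 at 6 h and 1.52 in vehicle, and 0.862 to 5.51 in the other vehicle libraries, and only the 6 h value lay outside. let-7b-5p (chr7:118684044-118684065) and 1 of the 2 RefSeq loci of let-7c-5p (chr7:118683636-118683657) are neighbours on the same strand.

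miR-101b-3p and miR-101a-3p, which differ by 1 base outside the seed, parted from each other. miR-101b-3p had 24 reads at 3 h and 107 at 6 h, against 28 in vehicle, a 6 h ratio of 3.82 (2.50 to 6.02). miR-101a-3p had 9 at 3 h and 13 at 6 h, against 26 in vehicle, a 3 h ratio of 0.357 (0.147 to 0.786). Their ratio was 2.67 (1.20 to 6.52) at 3 h, 8.23 (4.61 to 16.0) at 6 h and 1.08 (0.609 to 1.91) in vehicle, against 1.12 to 1.80 in the other vehicle libraries. By total counts miR-101b-3p was at 1.60 at 6 h and not called.

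The balance of the 2 strands of a hairpin also differed. The ratio of miR-30a-5p to miR-30a-3p was 4.49 (3.62 to 5.61) at 3 h, 5.37 (4.46 to 6.50) at 6 h and 11.5 (8.69 to 15.4) in vehicle, and 7.76 to 16.2 in the other vehicle libraries. miR-30a-5p had 462 reads at 3 h and 725 at 6 h, against 630 in vehicle, and miR-30a-3p had 103 and 135, against 55. The strands of miR-30e had the same direction, with 5p to 3p at 0.202 (0.127 to 0.309) at 3 h and 0.152 (0.0996 to 0.223) at 6 h. In vehicle the ratio was 0.360 (0.245 to 0.522), an interval that overlaps that of 3 h. The other vehicle libraries lay at 0.255 to 0.810. For let-7d the ratio of 5p to 3p was 0.987 (0.711 to 1.37) at 3 h, 1.04 (0.705 to 1.52) at 6 h and 2.05 (1.40 to 3.04) in vehicle. The other vehicle libraries lay at 0.743 to 3.47, so both drug libraries were within the spread of vehicle plasma. For miR-423 and miR-455 the counting intervals of the strand ratio overlapped in all 3 libraries. Both miR-423 strands were called higher at 3 h under both scalings, miR-423-3p at 3.29 (2.19 to 5.05) and miR-423-5p at 2.54 (1.71 to 3.82), and at 6 h by TMM alone, at 2.53 and 2.11.

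miR-128-3p, a brain-enriched miRNA, had 368 reads at 3 h and 151 at 6 h, against 129 in vehicle. Its ratio was 2.94 (2.40 to 3.62) at 3 h and 1.17 (0.920 to 1.49) at 6 h. By total counts the same ratios were 2.58 and 0.491. The other brain miRNAs listed were under the read minimum. Other calls at 3 h under both scalings rested on few reads. miR-676 had 20 at 3 h and 10 at 6 h, against 5 in vehicle, miR-224-5p had 24 and 6, against 8, miR-361-3p had 33 and 21, against 14, and miR-3559-3p had 23 and 54, against 9. miR-3559-3p was called higher at 6 h as well, under both scalings. Each of these reached 20 reads only in a drug library, so their higher calls follow from how the members were chosen. Lower calls under both scalings included miR-1839-5p at 3 h alone, with 6 reads at 3 h and 16 at 6 h, against 28 in vehicle. miR-103-3p was called so at 6 h alone, with 29 and 11, against 43. miR-378a-3p, encoded in a gene of mitochondrial metabolism, had 497 reads at 3 h and 964 at 6 h, against 312 in vehicle, a 6 h ratio of 3.09 (2.72 to 3.52) by TMM and 1.30 by total counts.

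The 6 h library was also compared with the 3 h library directly, and 10 miRNAs (9.8%) were called higher and 12 (11.8%) lower by TMM, against 3 (2.94%) higher and 64 (62.7%) lower by total counts (65.7% in all). Of the 14 miRNAs that reached 20 reads only in a drug library, 5 were called higher and 3 lower by TMM. miR-200a-3p and miR-194-5p are among the higher ones. These calls follow in part from how the members were chosen. The 3 that were higher under both scalings were miR-122-5p at 5.35 (5.24 to 5.47), miR-200a-3p at 5.31 (3.71 to 7.80) and miR-101b-3p at 4.33 (2.76 to 7.05). miR-192-5p was at 3.32 (3.10 to 3.57), miR-183-5p at 3.44 and miR-194-5p at 3.77 by TMM, and none of these 3 passed the rule by total counts. All 12 lower calls were made under both scalings. They were the 4 muscle miRNAs, miR-128-3p, miR-224-5p, miR-149-5p, miR-223-3p, miR-98-5p, miR-199a-3p, miR-103-3p and miR-203a-3p. Of these, miR-133a-3p, miR-1b and miR-224-5p reached 20 reads at 3 h alone, so their lower calls at 6 h follow from how the members were chosen.

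The size of these differences was set against the spread among vehicle libraries. Between any 2 of the 5 vehicle libraries (10 pairs) the same rule called 3.26% to 31.1% of miRNAs (median 21.2%) with 1 TMM over all libraries, and 7.61% to 29.4% (median 11.7%) with total counts. The 28.4% called by TMM at 3 h and again at 6 h lie inside the TMM range, but rest on another TMM and other sets of miRNAs. By total counts the 26.5% called at 3 h lie inside the vehicle range as well, and the 64.7% called at 6 h lie above it. Pairs that include the acetaminophen vehicle reached only 23.6% with 1 TMM and 22.5% with total counts. The drug libraries lay above those pairs at both times, but their rates are partly fixed by how the members were chosen. Of the 14 miRNAs that reached the read minimum only in a drug library, 8 were called higher at 3 h under each scaling. The excess at 3 h can therefore not be read apart from that choice. The miRNAs called against each of the 5 vehicle libraries with 1 TMM were 3 higher and 4 lower at 3 h, and 8 higher and 5 lower at 6 h. With total counts they were 4 higher and 3 lower at 3 h, and 4 higher and 17 lower at 6 h. At 3 h the higher ones were miR-122-5p, miR-133a-3p and miR-206-3p, joined by miR-128-3p with total counts, and the lower ones miR-16-5p, miR-451-5p and miR-93-5p, joined by miR-140-5p with 1 TMM.

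Of the 21 TMM calls higher at 3 h, 19 lay above all 5 vehicle libraries by scaled reads and by share, and 6 of the 8 lower calls lay below them. At 6 h 10 of 18 lay above and 9 of 11 below. The acetaminophen vehicle, against which the calls were made, is among the 5, so these counts are partly fixed by the calls. Through a drug library alone, 8 of the 21 reached the read minimum. Among all 102, 31 lay above every vehicle library by scaled reads at 3 h and 34 by share. The 6 h numbers were 25 and 10, in the same order. Below every vehicle library lay 19 by each measure at 3 h, and 21 by scaled reads and 66 by share at 6 h. The other vehicle rats came from other toxicant studies in the series and partly had another carrier, corn oil, so this spread includes differences between experiments.

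The remaining miRNA lists had 1 to 7 measured members each, and their TMM counts stand beside 20.6% higher and 7.84% lower of all 102 at 3 h, and 17.6% higher and 10.8% lower at 6 h. At 3 h 2 of 3 measured members of the miR-99/100 and miR-125 list were higher, 1 of 4 of the miR-17/92 and miR-106b/25 list was lower (miR-93-5p), 1 of 3 of the miR-29 and miR-101 list was lower (miR-101a-3p), and none of 7 of the miR-30 list, 3 of the miR-148 and miR-152 list, 6 of miR-23/27/24 or 2 of the miR-378 and miR-22 list was called. The miR-99 calls were miR-99a-5p, with 931 reads at 3 h and 829 at 6 h, against 445 in vehicle, and miR-99b-5p. At 6 h 1 of 7 in the miR-30 list was higher (miR-30a-3p), 1 of 3 in the miR-29 and miR-101 list was higher (miR-101b-3p), 1 of 4 in the miR-17/92 and miR-106b/25 list was lower (miR-93-5p), 1 of 2 in the miR-378 and miR-22 list was higher, and none in the miR-99/100 and miR-125, miR-148 and miR-152, or miR-23/27/24 lists was called. Of the stress and hypoxia list 1 of 5 was measured and not called, and its medians were −0.34 at 3 h and −0.50 at 6 h. Of the pancreas and gut list 2 of 4 were measured, miR-375-3p and miR-215, which went opposite ways at 6 h.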

How the data were processed

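RNA from 200 µL plasma was made into libraries with 15 PCR cycles and gel size selection for a MiSeq, per the labels' protocols. The authors deposited raw read counts per mature miRNA and, beside them, a normalized signal. Per the submitters' processing notes DESeq 1.28.0 was used, and the deposited signal lists 122 miRNAs of the acetaminophen table, 14.8% to 22.1% of whose values per library were off by more than 0.5 read from the count times a factor, so the counts were used. No source used here gives the counting tool, miRNA release or genome build, and the GRCr8 coordinates come from RefSeq.

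The main scaling was TMM over the 5 acetaminophen-table libraries (edgeR 4.0.16, R 4.3.3, no count model), set beside total counts. Ratios have exact Clopper-Pearson-based 95% intervals (scipy 1.17.1), which cover counting error only, as PCR copies are not separate molecules. A floor of 3 reads stands for 0, and medians used a pseudocount of 0.5 read. No test was run, with 1 library per group. Named miRNAs were the 10 with the largest share in vehicle, the 8 highest and 8 lowest ratios called under both scalings per time, and list members as examples. miR-103-3p, miR-378a-3p and miR-149-5p and the pairs of strands are named as further descriptions. The members and lists were chosen with earlier results of these data known. The scripts were tested on simulated data. Alternatives covered other scalings, the read minimum, the ratio and each other vehicle library.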

Additional observations from a re-analysis of the deposited data

Results flagged for a closer look

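With 1 library per group no sample could be set against replicates. Under total counts 2 miRNAs were called in opposite directions at the 2 times, a difference that was not tested. miR-128-3p was at a ratio of 2.58 at 3 h and 0.491 at 6 h, and miR-206-3p at 8.66 at 3 h and 0.292 at 6 h. By TMM neither was called at 6 h.

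The 12 h and 24 h libraries entered the TMM factors but no ratio given in the report. In them 28 miRNAs that stayed under 20 reads in vehicle, at 3 h and at 6 h reached 20. miR-122-3p, the other strand of the miR-122 hairpin, had 0 reads in vehicle, 1 at 3 h, 10 at 6 h, 17 at 12 h and 94 at 24 h. miR-3559-5p had 2 reads in vehicle, 2 at 3 h, 11 at 6 h, 49 at 12 h and 472 at 24 h. These libraries were deeper, at 288240 reads at 12 h and 240352 at 24 h, and the part of depth was not tested.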

How the results depend on the processing

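No paired analysis was possible because each acetaminophen group has 1 library. No miRNA called by TMM was called in the opposite direction under any alternative run. Higher and lower calls at 3 h (21 and 8) became 12 and 16 with total counts without the 10 most frequent miRNAs, 12 and 16 with 1 TMM over all libraries, 6 and 25 with upper-quartile scaling, 34 and 15 at a ratio of 1.5, 6 and 1 at a ratio of 4, and 13 and 26 against the CCl4 and DEX vehicle. The higher calls became 13 with 20 reads required in vehicle and 12 against the TAA vehicle, and the lower calls 3 at 50 reads and 13 against the ANIT vehicle. At 6 h (18 and 11) they became 6 and 60 with total counts, 8 and 1 at a ratio of 4, and 11 and 19 against the TAA vehicle. The lower calls at 6 h became 21 with total counts without miR-122-5p, 17 without the 10 most frequent, 20 with upper quartile, 18 with no minimum, 5 at 50 reads, 17 at a ratio of 1.5 and 28 against the CCl4 and DEX vehicle. For 6 h against 3 h (10 and 12) they became 3 and 64 with total counts, with 26 lower without miR-122-5p and 16 higher with TMM on all listed miRNAs, a setting added after the data were seen. Among named miRNAs called by TMM, ratios that turned direction at 3 h were miR-26a-5p (1.85) and miR-26b-5p (1.30) against the TAA vehicle and miR-1b (0.785) against the CCl4 and DEX vehicle. At 6 h they were let-7b-5p (0.854), miR-423-5p (0.885) and miR-194-5p (0.980) with total counts, and miR-26b-5p (1.21) and miR-103-3p (1.34) against the TAA vehicle. With miR-16-5p in place of miR-486, the change of miR-122-5p over vehicle was 23.0 and not 13.2 at 3 h, and 144 and not 70.5 at 6 h. The 3 h change of miR-1-3p to miR-122-5p was 1.54, and 0.721 with miR-1b. The median call rate between vehicle libraries was 21.2%, and 11.7% with total counts, also added later. The cause of these changes was not tested, beyond what each setting alters by construction. miRNAs with under 20 reads in vehicle have wide counting intervals.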
